A study of Mus musculus with 8 samples.

Results

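The receptor-type tyrosine phosphatases described here are 9 transmembrane phosphatase genes, Ptprs, Ptprf, Ptprc, Ptprd, Ptpre, Ptprj, Ptpra, Ptpro and Ptprk, with Ptprcap, which encodes a small membrane protein bound to CD45. They were taken as every probe set of the array whose platform gene symbol is, or includes, one of these names. That gave 23 probe sets of 22690 for 10 genes, and 0 of the 23 joined a second symbol. The group was chosen by measured values, since the Ptprs and Ptprf signals stood higher in tumors than in parental cells. For all 10 genes that comparison is therefore given as a description, with no test. Differences among the tumors took no part in the choice and were tested.

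All samples descend from FL5.12, a pro-B line of the mouse that needs interleukin-3, stably transfected with Bfl-1DC, a form of the survival protein Bfl-1, and with p53DD, a dominant-negative fragment of p53. Parental cells (2 arrays) were kept in medium with supernatant of WEHI-3B cells as the source of interleukin-3, and the labels state no treatment. The tumors came from spleens of 3 nude mice, which lack a thymus, after injection of these cells into a vein, and each tumor was measured on 2 arrays. Both transgenes are therefore shared by the controls and the tumors. The labels do not say whether the line is 1 clone, whether tumor cells were separated from host spleen cells or cultured, or the age of the mice. They also do not say whether duplicate arrays came from separate cultures or extractions, so the spread between duplicates may be technical. The deposited values are linear MAS5 signals, and changes are given on the scale of log2(signal + 16), which understates those of weak genes.

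Receptor-type tyrosine phosphatases span the cell membrane and remove phosphate from tyrosines of proteins inside the cell. Ptprs, Ptprf and Ptprd form the LAR family, whose outer parts bind heparan sulfate proteoglycans and other surface proteins and which are best known from neurons and epithelia. Ptprs is also a surface marker of plasmacytoid dendritic cells. Ptprc encodes CD45, the abundant phosphatase of leukocytes that activates Src family kinases by removing an inhibitory phosphate, and Ptpra and Ptpre encode small relatives that act on the same kinases.

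Promoter sequences are shown for Ptprs and Ptprf, which stood higher in the tumors, and for Ptprc, which is on in all arrays. RefSeq windows of the build GRCm38.p6 were found for 8 members, with 13 start sites, and the 250 bases before a start are printed 5′ to 3′ on the strand of the gene. Capitals mark matches to the motifs searched on both strands, which were the E-box CACGTG, the cyclic AMP response element TGACGTCA, the GC box GGGCGG, the CCAAT box, the TATA box TATAAA and the ETS sequence CNGGAAGT. None of these 6 overlapped another in the printed windows. The windows lie on the minus strand at chr17:56476481-56476730 for Ptprs (the first of its 2 start sites), chr4:118291398-118291647 for Ptprf and chr1:138175306-138175555 for Ptprc (the first of its 2).
Ptprs: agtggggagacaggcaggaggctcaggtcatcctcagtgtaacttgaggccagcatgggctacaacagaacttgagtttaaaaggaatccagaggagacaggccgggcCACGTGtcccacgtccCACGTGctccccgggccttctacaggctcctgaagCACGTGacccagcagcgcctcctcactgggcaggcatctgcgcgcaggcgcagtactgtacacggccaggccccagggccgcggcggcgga
Ptprf: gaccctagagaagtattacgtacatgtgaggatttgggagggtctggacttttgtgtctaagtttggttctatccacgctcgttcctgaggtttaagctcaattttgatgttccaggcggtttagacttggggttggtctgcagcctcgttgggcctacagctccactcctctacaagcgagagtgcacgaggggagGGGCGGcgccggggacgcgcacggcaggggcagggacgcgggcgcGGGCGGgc
Ptprc: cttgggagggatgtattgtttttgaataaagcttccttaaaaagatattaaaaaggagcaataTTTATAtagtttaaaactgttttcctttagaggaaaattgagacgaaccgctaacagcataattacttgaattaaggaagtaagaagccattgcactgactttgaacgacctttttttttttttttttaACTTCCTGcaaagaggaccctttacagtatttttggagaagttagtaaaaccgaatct

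The Ptprs window held 3 E-boxes, a sequence that reads the same on both strands, starting at -142, -126 and -91 from the start site. An E-box was found in 6.02% of the 32851 windows of all genes, and at least 3 were found in 20 windows (0.0609%). The motifs were chosen after the sequences were seen, and the count of 3 was taken from the Ptprs window itself. The shares in this paragraph are therefore a description and no test. The Ptprf window held 2 GC boxes, a match found in 32.7% of all windows, and no E-box. The second Ptprs window, at chr17:56462222-56462471, held 3 GC boxes and no E-box. The Ptprc window held 1 ETS match (7.58% of all windows) and 1 TATA match (12.4%). Of its bases 31.6% were G or C, against 64% for Ptprs and 59.2% for Ptprf and a median of 52.4% over all windows. CpG pairs stood at 0.586 of the number expected from base composition in the Ptprs window, 0.868 in that of Ptprf and 0.654 in that of Ptprc, with a median of 0.373 over all. The value for Ptprc rests on 4 CpG pairs, against 15 for Ptprs and 18 for Ptprf. In the second windows of Ptprs and Ptprc it was 0.637 and 0.237. These matches describe letters and do not show that a factor binds.

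Ptprs was high in all 3 tumors on 1 of its 3 probe sets. Probe set 1426794_at (chromosome 17) read 33.2 and 57.1 in parental cells, 437 and 264 in tumor 1, with 440 and 277 for tumor 2 and 251 and 235 for tumor 3. The lowest tumor array thus lay above the highest parental array, with no overlap. The parental arrays averaged 45.1 ± 16.8 (SD, n = 2) and the tumors 317 ± 64.5 (SD, n = 3 tumors), a ratio of 7.03. On the log2 scale the change was 2.43 ± 0.25 (SE), with 2.57, 2.61 and 2.11 in tumors 1, 2 and 3. The first array of tumors 1 and 2 read above the second, by 0.69 and 0.64, while in parental cells the first read below the second, by 0.57. The change was therefore 2.95 among arrays of number 1 and 1.91 among arrays of number 2, and 2.71 and 2.14 against each parental array alone.

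The other Ptprs probe sets stayed low. On 1426795_at signals ran from 4.23 to 9.72 in parental cells and from 5.78 to 17.5 in tumors, and on 1427688_a_at from 4.84 to 8.62 and from 3.96 to 15.9. Neither exceeded the 40th percentile of signal of its own array (15.6 to 20.6) on any of the 8 arrays. Their changes were 0.25 and 0.11, with the groups overlapping. The platform annotation gives 1426794_at and 1426795_at the same source sequence, and which part of the transcript each set probes was not analysed here. The high Ptprs signal thus rests on a single probe set.

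Ptprf, the LAR phosphatase itself, was high in the tumors on all 3 of its probe sets. On 1420843_at (chromosome 4) parental cells read 17.8 and 12.9, tumor 1 read 157 and 156, tumor 2 read 82.6 and 84.4 and tumor 3 read 169 and 181. Duplicate arrays nearly coincided and the tumors were far apart from the parental cells. The mean went from 15.4 ± 3.45 (SD, n = 2 arrays) to 138 ± 48.4 (SD, n = 3 tumors), a ratio of 8.99 and a log2 change of 2.25 ± 0.30 (SE). On 1420842_at the parental arrays read 11.9 and 11.4 and the tumor arrays from 42.7 to 138 (1.60 on the log2 scale), and on 1420841_at they read 13.3 and 9.21 and from 31.3 to 78.2 (1.11). Parental signal was above the 40th percentile of its array on 1 of 6 readings over these sets, so the size of the change depends on the number added before the logarithm. It was 3.04 with 1 added and 1.32 with 64 added, and for Ptprs 2.79 and 1.78.

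**Figure D1:**
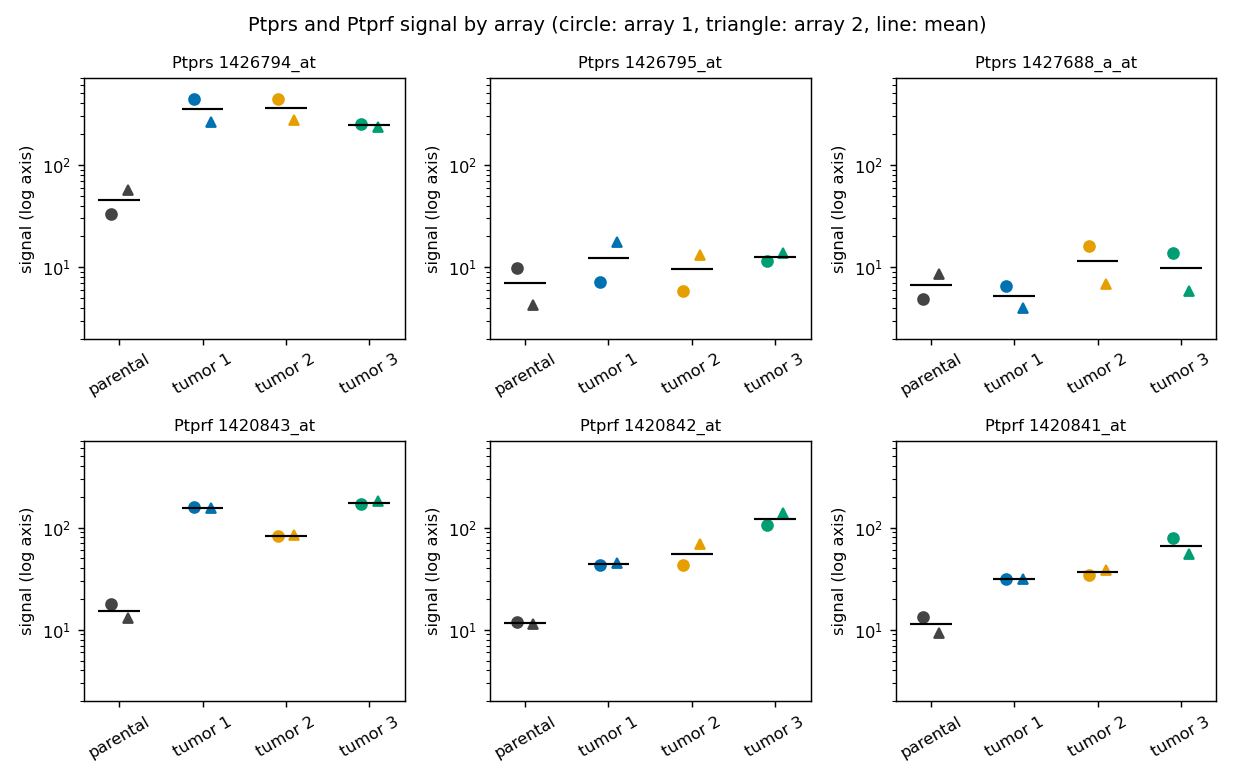
Signal (log axis) of the 3 probe sets of Ptprs (top) and of Ptprf (bottom) in parental cells and tumors 1 to 3, with circles for the first array, triangles for the second and a line at their mean. Ptprs is high in tumors on 1426794_at only, while all 3 Ptprf sets are higher in every tumor than in parental cells.

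Ptprd, the remaining LAR family gene, was near the floor in all samples. Its 3 probe sets read between 5.53 and 9.57 in parental cells and between 0.948 and 13.6 in tumors, below the 40th percentile on every array. Changes were 0.10, -0.17 and -0.050, with overlap in each. No level of Ptprd distinguishable from weak background signal was therefore measured in parental cells or tumors.

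Ptprc (CD45, chromosome 1) was high in every sample and did not separate the groups. Its probe set read 1254 and 1933 in parental cells, 984 and 1565 in tumor 1, with 1109 and 1433 for tumor 2 and 1806 and 1896 for tumor 3. The groups overlapped, with the first arrays of tumors 1 and 2 below both parental arrays and the other 4 tumor arrays between them. The mean was 1594 ± 480 (SD, n = 2 arrays) against 1465 ± 334 (SD, n = 3 tumors), a log2 change of -0.13 ± 0.27 (SE). The second array read above the first in each of the 4 sources, by 0.62, 0.66, 0.37 and 0.070 on the log2 scale in parental cells and tumors 1, 2 and 3.

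Ptprcap, whose product associates with CD45 (chromosome 19), read 493 and 993 in parental cells, 400 and 328 in tumor 1, with 658 and 711 for tumor 2 and 743 and 713 for tumor 3. Tumor 1 lay below both parental arrays, and tumors 2 and 3 lay between them. The log2 changes were -0.92, -0.033 and 0.054 in tumors 1, 2 and 3, with a mean of -0.30 ± 0.39 (SE). Among arrays of number 1 the mean change was 0.23 and among arrays of number 2 it was -0.83, since the 2 parental arrays differed by 0.99. No direction could be given from these values.

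Ptpra, which encodes a phosphatase that activates Src (chromosome 2), was the member whose tumors all lay below both parental arrays. It read 372 and 413 in parental cells, 283 and 259 in tumor 1, with 328 and 243 for tumor 2 and 268 and 272 for tumor 3. The tumors were alike, with log2 changes of -0.51, -0.45 and -0.51 and a mean of -0.49 ± 0.15 (SE). The change was -0.33 among arrays of number 1 and -0.65 among arrays of number 2.

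Ptpre, the close relative of Ptpra (chromosome 7), was higher in the tumors, with the largest change in tumor 1. Its differences among the tumors passed the F test given below only with the replicate block. On 1418539_a_at Ptpre read 386 and 415 in parental cells, 796 and 969 in tumor 1, with 494 and 663 for tumor 2 and 422 and 512 for tumor 3. All 6 tumor arrays lay above both parental arrays, and those of tumor 1 lay above all others. The log2 changes were 1.10, 0.50 and 0.21 in tumors 1, 2 and 3, with a mean of 0.60 ± 0.27 (SE). The second probe set, 1418540_a_at, read 152 and 208 in parental cells, 380 and 469 in tumor 1, with 214 and 286 for tumor 2 and 168 and 242 for tumor 3, with the same order of tumors. Its changes were 1.17, 0.45 and 0.17, and there tumor 3 overlapped the parental arrays.

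Ptprj, which encodes CD148 (chromosome 2), gave no common direction over its 4 probe sets. The brightest, 1455030_at, read 135 and 200 in parental cells, 83.3 and 154 in tumor 1, with 126 and 146 for tumor 2 and 143 and 174 for tumor 3, a change of -0.26 ± 0.22 (SE) with overlap. The others changed by 0.27 on 1425588_at, 0.20 on 1427629_at and 0.079 on 1425587_a_at. Only 1425588_at separated the groups, at 27.4 on both parental arrays and 31.4 to 48.7 in the tumors. The mean over the 4 sets was 0.073, so the sign for this gene depends on which set is read.

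Ptpro, a phosphatase known from podocytes and neurons, did not exceed the 40th percentile on any array on either of its probe sets. On 1417676_a_at it read 5.33 and 1.64 in parental cells and 6.96 to 15.5 in tumors, and on 1425863_a_at 8.62 and 10.7 against 0.466 to 10.2. Ptprk, a phosphatase of cell contacts (chromosome 10), passed the filter on 1 of 3 probe sets, and only through the 2 arrays of tumor 3. That set, 1423277_at, read 1.24 and 9.79 in parental cells, 5.99 and 4.05 in tumor 1, with 4.91 and 18.6 for tumor 2 and 21.1 and 21.3 for tumor 3. The other Ptprk sets, 1423278_at and 1431680_a_at, did not exceed the 40th percentile on any array. Ptprk is therefore near the floor in all samples, with tumor 3 just above the highest 40th percentile of the arrays (20.6).

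**Figure D2:**
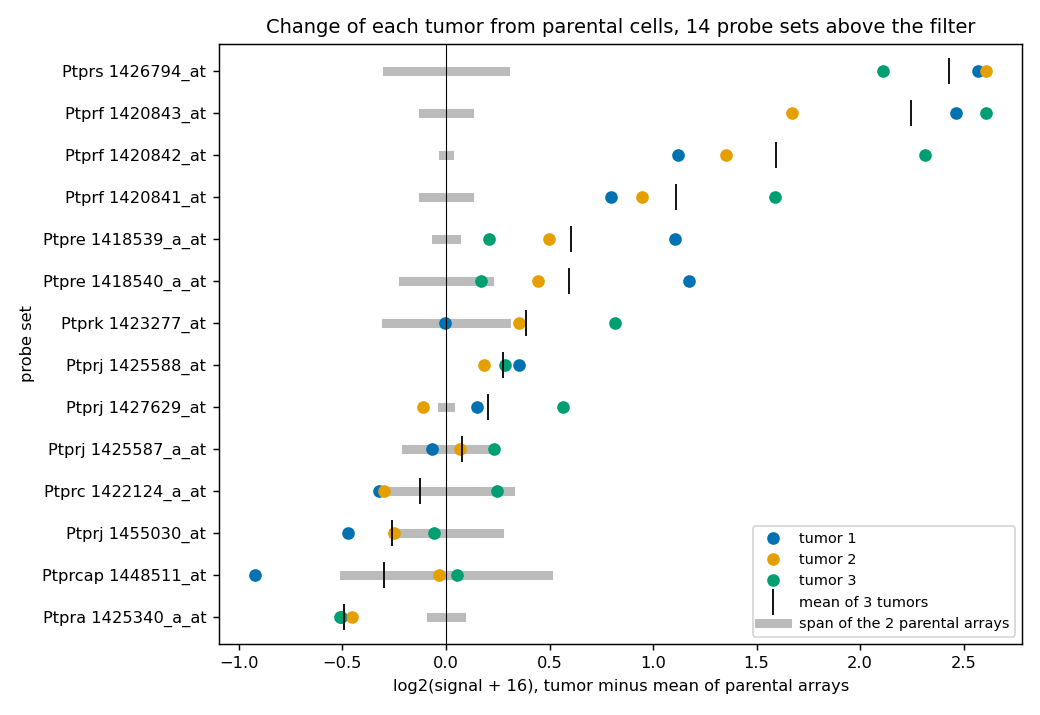
Change of each tumor from the mean of the parental arrays on the scale of log2(signal + 16), for the 14 probe sets that passed the filter on low values, with the tumors as coloured points, their mean as a bar and the span of the 2 parental arrays in grey. The Ptprs set and the 3 Ptprf sets lie furthest to the right (1.11 to 2.43), Ptprc lies within or near the parental span and Ptpra lies below it.

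In all, 8 of the 10 genes passed the filter, Ptprd and Ptpro did not, and the gene tests below use the brightest passing probe set of each. Taking each tumor as the mean of its 2 arrays, all tumors lay above both parental arrays for 3 members (Ptprs, Ptprf, Ptpre), against 20% of the 8539 genes measured, and below both for 1 (Ptpra), against 15.6%. The groups overlapped for the other 4 members. By probe set, 6 of the 14 above the filter had all tumors above, against 18.4% of 14897 sets, and 1 had all below, against 15.8%. These shares describe the contrast by which the genes were chosen. Sets that pass the filter through the tumors alone, as 1420841_at and 1420842_at of Ptprf do, are by that choice more likely to have higher tumors. They need not separate, and 1423277_at of Ptprk, which passed through tumor 3 alone, overlapped. The median change of the 8 members was 0.13 against 0.022 for all genes.

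Whether the members differed among the 3 tumors was tested with limma's F test on all 8 arrays. Its error comes from duplicate arrays of a source and has 4 residual degrees of freedom. No member passed at an adjusted p of 0.05 (limma), against 1.62% of all genes, and no member probe set, against 1.26% of all sets. Of the members 3 had an unadjusted p under 0.05, namely Ptprf, Ptpre and Ptprcap, against 12.6%. The lowest adjusted p were 0.0694 for Ptprf, 0.191 for Ptpre and 0.287 for Ptprcap. Arrays of the same number deviated together in every pair of sources, as set out in the processing notes. With the array number as a replicate block, Ptprf (limma adjusted p = 0.0216) and Ptpre (0.0285) passed, against 6.44% of all genes, and Ptprcap (0.127) did not. Ptprs had an adjusted p of 0.753 without the block and 0.467 with it, Ptprc 0.63 and 0.147 and Ptpra 0.992 and 0.957.

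Between pairs of tumors no member passed without the block, against 0.925% of all genes for tumors 1 and 2, 1.23% for tumors 1 and 3 and 0.632% for tumors 2 and 3. With the block these shares were 4.49%, 6.5% and 1.62%. Ptprf was lowest in tumor 2 on its brightest probe set. Tumor 1 exceeded tumor 2 by 0.80 ± 0.17 (SE; with the replicate block ± 0.15 and limma adjusted p = 0.0315) and tumor 3 exceeded it, tumor 2 minus tumor 3 being -0.94 ± 0.17 (with the block adjusted p = 0.0277). Tumors 1 and 3 did not differ beyond their spread (-0.14 ± 0.17). The order was not the same on the other probe sets, where tumor 1 was lowest and tumor 3 highest. Tumor 1 minus tumor 3 was -1.19 ± 0.23 on 1420842_at and -0.79 ± 0.20 on 1420841_at, and tumors 1 and 2 did not separate there (-0.23 ± 0.23 and -0.15 ± 0.20). All 3 sets thus had tumor 3 highest, while the place of tumor 1 depended on the set. The F test over probe sets with the block gave limma adjusted p of 0.0228, 0.0217 and 0.0641 for 1420843_at, 1420842_at and 1420841_at, and 5.28% of all sets passed it.

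Ptpre was highest in tumor 1 on both probe sets. Tumor 1 minus tumor 3 was 0.90 ± 0.22 (SE; with the replicate block ± 0.14 and limma adjusted p = 0.0181) and tumor 1 minus tumor 2 was 0.60 ± 0.22 (with the block adjusted p = 0.0651). Tumors 2 and 3 did not separate (0.29 ± 0.22). On 1418540_a_at the corresponding values were 1.01 ± 0.26, 0.73 ± 0.26 and 0.28 ± 0.26, and the F test with the block gave a limma adjusted p of 0.0174. Ptprcap stood the other way, lower in tumor 1 than in tumor 2 by -0.89 ± 0.31 and than in tumor 3 by -0.97 ± 0.31, neither of which passed (limma adjusted p = 0.323 and 0.219).

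**Figure D3:**
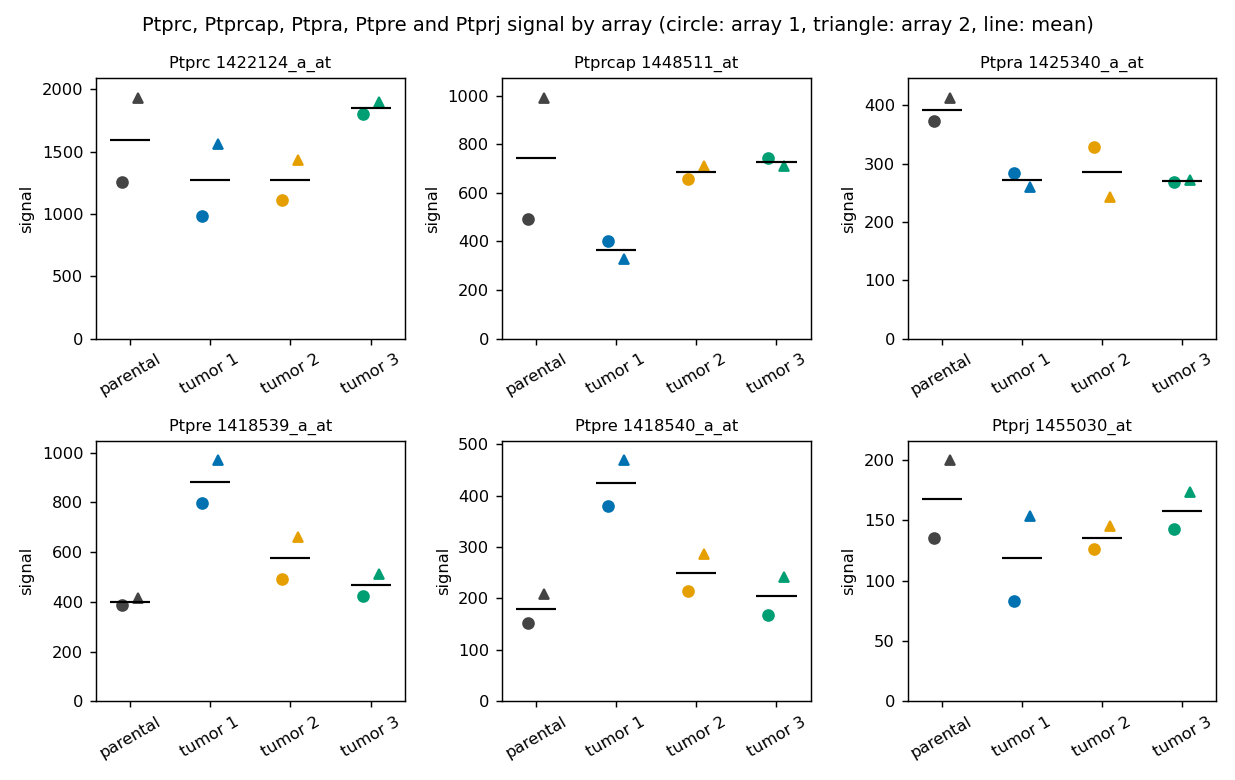
Signal (linear axis from 0) of Ptprc, Ptprcap, Ptpra, both probe sets of Ptpre and the brightest set of Ptprj in parental cells and tumors 1 to 3, with circles for the first array, triangles for the second and a line at their mean. Ptpre is highest in tumor 1 (796 and 969 on 1418539_a_at) and Ptprcap is lowest there (400 and 328), while the parental arrays of Ptprc span 1254 to 1933.

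The genes next to Ptprs and Ptprf on their chromosomes did not share their changes. Of the 10 measured genes around Ptprs the median change was 0.027 and the highest 0.75, and around Ptprf they were 0.11 and 0.74. The medians of chromosomes 17 and 4 were 0.050 and 0.22. Ptprcap lies on chromosome 19, whose 327 measured genes had a median of -0.35, and its 10 neighbours had a median of -0.44, beside its own change of -0.30. Neighbours of Ptpre (-0.046) and Ptpra (-0.030) had medians near 0.

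The genes most like Ptprs over the 8 arrays were Pdcl (Pearson r = 0.972), Hip1r (0.97) and Smdt1 (0.963). Those most like Ptprf were Mrap (0.985), Lgals7 (0.982) and Cd3d (0.98), and those most like Ptprc were Pim3 (0.961), Mospd1 (0.951) and Oaz1 (0.938). The correlations are descriptions over arrays that share 4 sources, and those of Ptprs and Ptprf include the contrast by which these genes were picked. Pdcl read 393 and 461 in parental cells and 714 to 1298 in tumors, and Mrap 8.90 and 1.67 against 70.8 to 202. Ptprc and Ptprj correlated with each other at 0.886.

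Genes around these phosphatases in their pathways were read from 7 lists, and few passed the test of tumors against parental cells, which passed 0.773% of all genes (0.597% upward and 0.176% downward). Of 4 measured receptor-type phosphatases outside the members 0 passed (limma, 0 also at an unadjusted p under 0.05) and their median change was 0.13. Ptpru had a change of 0.50 (limma adjusted p = 0.364), Ptprn2 0.37 (0.319), Ptprn -0.12 (0.837) and Ptprv -0.38 (0.31). Of 13 measured non-receptor tyrosine phosphatases 0 passed (limma), 2 had an unadjusted p under 0.05, which 16.4% of all genes had, 8 lay above 0 and the median was 0.13. Those 2 were Ptpn9 (0.58, limma adjusted p = 0.297) and Ptpn11, the SHP-2 phosphatase (-0.40, 0.303). Ptpn6, the SHP-1 phosphatase of blood cells, had a change of -0.28 (0.487).

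Ptpn14, a phosphatase of the Hippo pathway, did differ among the tumors. It read 67 and 64.4 in parental cells, 37.9 and 36.1 in tumor 1, with 97.6 and 117 for tumor 2 and 96.5 and 125 for tumor 3, so tumor 1 was low and the other tumors were high. The F test gave a limma adjusted p of 0.0291 (0.00857 with the replicate block), and it was the 1 non-receptor phosphatase to pass. Ptpn12 passed with the block alone (0.0379), at 568 and 616 in tumor 1 against 824 to 1284 in the others. The F test passed 1 of 13 genes of this list and 0 of the other 6 lists, against 1.62% of all genes. With the block, where 6.44% of all genes passed, it passed 2 of 13 here and 3 of 6 Src family kinases and regulators (Fyn, Matk and Pag1). It also passed 1 of 8 CD45 partners (Jak2), 1 of 11 heparan sulfate genes (Extl3) and 0 of the remaining 3 lists.

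Among CD45 ligands and partners 1 of 8 measured genes rose. Lgals3, galectin-3, a lectin that binds CD45 glycans and is abundant in macrophages, went from 56.5 and 192 in parental cells to between 1593 and 3179 on the tumor arrays (4.18 ± 0.43 (SE), limma adjusted p = 0.0138). It stayed below an adjusted p of 0.05 without any 1 of the 5 samples (up to 0.0333). The Janus kinases Jak1 and Tyk2, which CD45 can dephosphorylate, had changes of 0.81 (0.085) and 0.55 (0.152) with all tumors above both parental arrays. Neither passed that test. They passed with the replicate block on 8 arrays (limma adjusted p = 0.00813 and 0.0243), as 8.65% of all genes did upward. That fit takes duplicate arrays of a mouse as replicates. The list's median was 0.23 and 6 of 8 lay above 0, against 52.9% of all genes.

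Of 6 measured Src family kinases and regulators 0 passed, with a median of 0.30, and 3 had an unadjusted p under 0.05 (limma), against the 16.4% of all genes. Csk, which adds the inhibitory phosphate that CD45 removes, read 223 and 266 in parental cells and 349 to 556 in tumors (0.72 ± 0.21 (SE), limma adjusted p = 0.178). Pag1, the adaptor that holds Csk at the membrane, read 42.9 and 60.1 against 9.38 to 42.8 (-0.80 ± 0.29, 0.257). The adaptor gene Skap2 had a change of 0.56 (0.226). With all 8 arrays and the replicate block, which takes duplicate arrays of a mouse as replicates and passes 8.65% of all genes upward and 5.86% downward, 3 of the 6 passed upward (Csk, Skap2 and Matk) and 1 downward (Pag1).

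Among ligands and partners of the LAR family 1 of 8 measured genes rose. Il1rap, a chain of the interleukin-1 receptor that also binds LAR family phosphatases at synapses, went from 22.3 and 20.2 to between 38.9 and 103 (1.27 ± 0.18 (SE), limma adjusted p = 0.0411). It was lost when any 1 of the 5 samples was left out (0.0505 to 0.179). Trio, a guanine nucleotide exchange factor that binds LAR, had a change of -1.05 ± 0.52 (0.379), with the parental arrays far apart at 57.5 and 200. Among first arrays the tumors read 50.3, 23.8 and 14.3 and among second arrays 101, 100 and 30.8, below the parental array of the same number in each case. With the replicate block on 8 arrays Trio passed downward (limma adjusted p = 0.0203), as 5.86% of all genes did. That fit takes duplicate arrays of a mouse as replicates. In the main test, where each tumor counts once, Trio did not pass. The list's median was 0.14. Sdc1 and Sdc3, syndecans that carry heparan sulfate, had changes of 0.37 (0.387) and 0.44 (0.593). Of 11 measured genes of heparan sulfate synthesis 0 passed (limma, 0 also at an unadjusted p under 0.05), 5 lay above 0 and the median was -0.073, with B3gat3 at -0.30 (0.373). Of 11 measured dual-specificity phosphatases 0 passed (likewise 0 unadjusted), 8 lay above 0 and the median was 0.14, with Dusp10 at 0.56 (0.309). With the replicate block on 8 arrays the counts upward and downward were 3 and 0 of 8 for CD45 partners (Lgals3, Jak1 and Tyk2), 1 and 1 of 8 for LAR partners (Il1rap and Trio), 1 and 0 of 4 for other receptor-type phosphatases (Ptpru), 1 and 0 of 13 for non-receptor phosphatases (Ptpn9), and 0 for the last 2 lists.

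**Figure D4:**
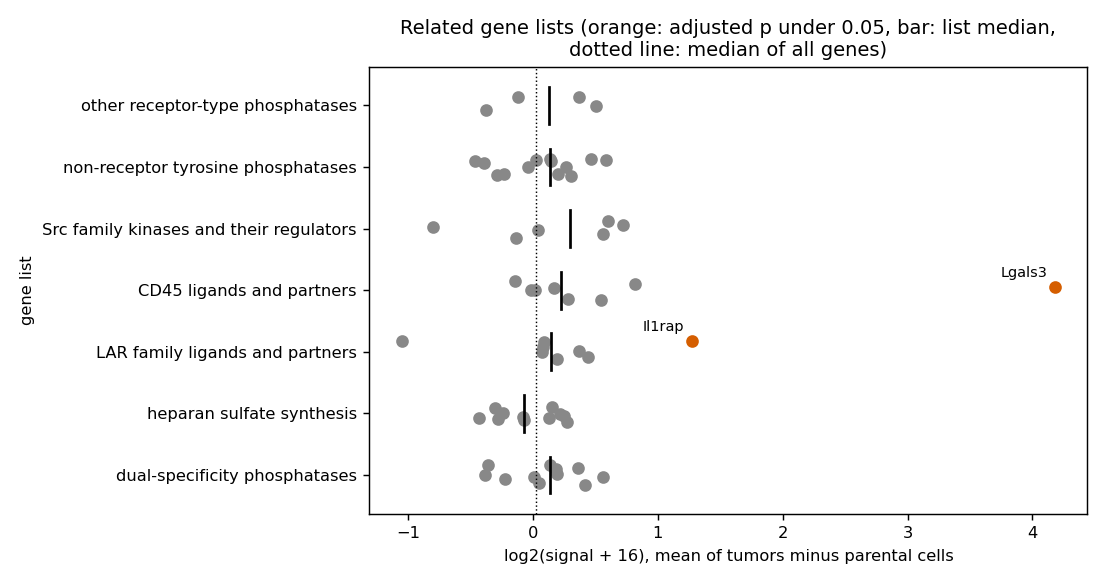
Mean change of the tumors from parental cells on the scale of log2(signal + 16) for the measured genes of 7 related lists, each point a gene, with orange for an adjusted p under 0.05, a bar at the list's median and a dotted line at the median of all genes (0.022). Lgals3 (4.18) and Il1rap (1.27) are the 2 genes that passed.

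Some markers of other blood cells were higher in the tumors, while others of the same lists stayed at the floor. Spleen tissue can hold host cells, and in such bulk samples more cells of a type and more RNA per cell cannot be told apart. The summed signal of 11 neutrophil markers was 259 to 804 on the parental arrays and 3768 to 9393 on the tumor arrays. Mpo and Ngp, granule protein genes, rose (6.19 and 4.5, limma adjusted p = 0.000191 and 0.0411), while Camp and Cxcr2 exceeded the 40th percentile on 0 arrays. The sum of 6 eosinophil markers was 38.1 to 44.1 and 3642 to 8221, through Epx and Prg2 above all, while Ccr3 and Il5ra exceeded the percentile on 0 arrays. The sum of 12 macrophage and monocyte markers, 186 to 905 and 725 to 2848, overlapped. In that list Ccr2, Lyz2 and Cd14 rose, while C1qa, C1qc and Marco exceeded the percentile on 0 arrays.

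The sum of 8 T cell markers was 288 to 385 and 1033 to 2742, and only Cd3g and Cd3d of the list carried the difference. Cd3g rose by 4.46 (limma adjusted p = 0.000854), and Cd3d had a change of 4.21 (0.069). Cd3e and Cd4 exceeded the 40th percentile on 0 arrays and Cd8a and Cd5 on 1 each, and Lat and Zap70 had changes of -0.39 (0.529) and -0.38 (0.686). The part of these markers in the higher Ptprs, Ptprf and Ptpre signals was not tested. In tumor 1, where Ptpre was highest and Ptprcap lowest, the sum of 8 mast cell markers was 5573 and 8711, against 102 to 683 in tumors 2 and 3 and 220 and 2864 on the parental arrays. Most of it came from Fcer1a, the IgE receptor chain, at 5067 and 6654 in tumor 1 and 16.3 to 50.9 in the other tumors, and some from Cpa3, at 317 and 1716 against 11.9 to 176. The parental arrays read 2.1 and 189 for Fcer1a and 11.7 and 595 for Cpa3. For Cpa3 the second parental array thus lay above the first array of tumor 1. Cma1 did not follow tumor 1, at 156 and 294 there, against 71.1 and 420 for tumor 2, 32.8 and 406 for tumor 3 and 180 and 2047 for parental cells. Kit, Mcpt4, Tpsb2 and Hdc exceeded the percentile on 0 arrays. The part of these markers in the Ptpre and Ptprcap signals was not tested.

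For plasmacytoid dendritic cells, which carry Ptprs, 10 of 12 markers were on the array, Siglech and Runx2 not being matched by symbol. Their summed signal was 202 to 245 on the parental arrays and 277 to 439 on the tumor arrays, without overlap. None of the markers above the filter passed the test (limma). Bst2 (49.3 to 75.6 and 89.5 to 261) and Tcf4 (84 to 90.5 and 36.1 to 154) made up most of the sum. Cox6a2 also exceeded the 40th percentile on all 8 arrays (21.5 and 25.9 in parental cells, 22.9 to 66 in tumors). Its change was 0.50 (limma adjusted p = 0.402). Ccr9, Ly6d, Klk1, Pacsin1, Spib and Lag3 did not exceed the percentile on any array and Irf8 did so on 1. For epithelium, where Ptprf is best known, the sum of 8 markers was 55.7 to 58.3 and 45.2 to 98.3, with overlap. Epcam, Cdh1, Cldn7 and Muc1 were below the 40th percentile on all 8 arrays, while Krt8 exceeded it on 6 (11.8 and 16.6 in parental cells, 15.9 to 37 in tumors; change 0.41, limma adjusted p = 0.287), Cldn4 on 3 and Krt18 and Krt19 on 1 each. Sums of 10 endothelial markers overlapped, at 311 to 380 and 250 to 465, with Pecam1 above the percentile on all 8 arrays (change -0.16) and Vwf, Cdh5, Kdr, Tek and Emcn on 0. Sums of 10 stromal markers did not overlap, at 75.7 to 82 and 84.4 to 179. Sparc read 2.42 and 3.17 in parental cells, 48 and 1.78 in tumor 1, with 2.15 and 1.495 for tumor 2 and 110 and 46.6 for tumor 3, and 7 of the 10, Pdgfrb and Col3a1 among them, exceeded the percentile on 0 arrays.

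The pro-B identity of the line was weakly marked on these arrays. Of 12 pro-B markers 2 exceeded the 40th percentile on both parental arrays, namely Cd79a and Cd79b, while Dntt, Rag1, Rag2, Vpreb1, Ebf1 and Blnk did not exceed it on any array. The summed signal of the list was 243 to 251 in parental cells and 472 to 643 in tumors. Cd79b, which encodes a signalling subunit of the B cell receptor, was higher in tumors by 1.31 (limma adjusted p = 0.0411). Among mature B cell markers 2 of 7 exceeded the percentile on both parental arrays, again Cd79a and Cd79b. Of the others, Cd22 exceeded it on 4 of the 8 arrays and Pax5 on 1. Sums for platelets (625 to 731 and 631 to 1033) and erythroid cells (1072 to 1732 and 384 to 1397) overlapped, and those for NK cells (49.9 to 84.6 and 120 to 166) did not. Of the NK markers only Nkg7 exceeded the 40th percentile on all 8 arrays, with a change of 1.10 (limma adjusted p = 0.146). Prf1 exceeded it on 1 array, and Ncr1, Klrd1, Klrk1, Gzma and Eomes on 0. Actb, taken as a control, had a change of 0.17 (limma adjusted p = 0.679), and the brightest Gapdh probe set outside the array controls, which joins 5 symbols, had a change of 0.18.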

How the data were processed

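Affymetrix arrays, 8 in all, held RNA of parental FL5.12 cells and of spleen tumors from 3 mice, with 2 arrays a source. Per probe set, the authors deposited a linear intensity from MAS5, per the submitters' processing notes. Its settings were not stated in the labels. All arrays share a trimmed mean of 150.1 (2% left out at each end), so they had been scaled to one target, which can shift every gene where total RNA content differs. Detection calls were not used here.

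Gene symbols are those of the platform table, brought up to date through gene IDs with RefSeq (GRCm38.p6). Of 22690 probe sets 20380 had 1 symbol, 691 several and 1555 none, and 64 were controls. The filter on low values asked for a signal above an array's 40th percentile on 2 or more arrays. The brightest kept set stood for a gene, which gave 8539 genes, and 14897 probe sets were also fitted. Tumors (means of 2 arrays) were compared with the 2 parental arrays by limma 3.58.1 in R 4.3.3 on log2(signal + 16), two-sided, Benjamini-Hochberg at 0.05 over all genes. Each parental array entered this fit as a unit beside the tumor means, under a shared variance. If the parental arrays are technical duplicates, the fit holds no spread between parental cultures. Differences among tumors used an F test on all 8 arrays with a mean per source. The scripts were checked on simulated data.

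The labels number the arrays 1 and 2 in each source. Deviations of same-numbered arrays correlated at 0.399 to 0.595 in the 6 pairs of sources, so a replicate block on the number was run. Alternatives were other pseudocounts, filters, normalizations, uses of probe sets and arrays, and leaving out samples. Named genes were the members, the called genes of each list (at most 3, otherwise that with the lowest p), the 3 genes most like Ptprs, Ptprf and Ptprc, Actb and Gapdh, and the brightest markers (at most 2 of a list). Genes named beyond that rule were chosen after their values were seen. The members and lists were chosen with earlier results of these data known. Motifs were chosen after the promoter sequences were seen.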

Additional observations from a re-analysis of the deposited data

How the results depend on the processing

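The count of 66 genes changed between tumors and parental cells was 33 with a pseudocount of 64, 26 with no filter, 356 with all 8 arrays as replicates and 1239 with the replicate block added to that fit. Leaving out a tumor or a parental array gave 13 to 73, with 17 without the first parental array and 13 without the second; the lone parental array is then assumed to vary like the tumors. The count of 138 genes differing among tumors was 72 with a pseudocount of 1, 79 with no filter and 550 with the replicate block, and 37 to 99 without any 1 array. The lowest were 37 and 42 without the first and second array of tumor 3 and 63 and 78 without those of tumor 2. The block made Ptprf and Ptpre pass among the tumors and no other member, and Ptprf also passed with a pseudocount of 64 (limma adjusted p = 0.0454). The alternatives gave log2 changes between tumors and parental cells of 1.78 to 2.95 for Ptprs, 1.32 to 3.04 for Ptprf, 0.35 to 0.80 for Ptpre and -0.65 to -0.33 for Ptpra. They gave -0.44 to 0.18 for Ptprc, -0.83 to 0.23 for Ptprcap, -0.52 to 0.073 for Ptprj and 0.097 to 1.19 for Ptprk. Ptprj was at 0.073 as the mean of its probe sets, against -0.26 on the brightest, since its other sets lay above 0. Within arrays of number 1 and of number 2, a comparison chosen after seeing the data, Ptprcap was at 0.23 and -0.83. Signal near the floor of the array limits Ptprd, Ptpro, Ptprk and the parental level of Ptprf, and the number of arrays limits the precision.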
